A study of Mus musculus with 24 samples.

Results

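Crb2, Dlg3 and F11r were examined here together with 7 further apical-basal polarity genes, Crb1, Crb3, Dlg1, Dlg4, Dlg5, Pard3 and Pard6b, in melanoma and myeloid mouse cell lines. The 10 genes were found by matching the RefSeq accession of each probe to the gene symbol, which gave 21 of the 56488 probes. The array held 45547 names in all, of which 22881 were gene symbols. Probes without a match kept the array's own name and, where tested, count in the shares of all genes below. The members were chosen by their measured signal: Crb2, Dlg3 and F11r were selected on how their normalized signal differed between these lines, so their values are a description and carry no test. For the other 7 genes and for a wider list of polarity and junction genes, the results of a fit over all genes are given. These genes were also chosen with earlier results of these data known, so their p-values are no independent evidence.

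The study asked how cells recovered after long tumour dormancy differ from the cells they came from. Total RNA of 7 lines was hybridised to 24 one-colour Agilent arrays, 1 sample per array. The melanoma lines derive from B16F1, a mouse melanoma line marked with green fluorescent protein. They are M, the parental line (3 arrays), D, recovered from mice at the late dormancy time point (4 arrays), and DB#1 (4), DB#2 (3) and DB#3 (3), a second generation from a brain site. M0 (4 arrays) and J365 (3 arrays) are described in the labels only as myeloid cells, and which leukemia line of the study each one is was not stated there. In each of these lines 1 array carries no replicate number in its label and is called replicate 4 here. The labels list no agent added to the cultures. The melanoma lines were grown in DMEM with serum, and the dormancy-derived ones had been amplified in culture after recovery from vaccinated mice. The labels do not say that the arrays of a line came from separate cultures, so the p-values below measure only the spread between these samples.

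Cell polarity is set up by a few protein complexes that oppose each other along the membrane. The Crumbs complex (the transmembrane Crb proteins with their Pals1 and Patj partners) marks the apical side, the Par complex (Pard3, Pard6 and an atypical protein kinase C) sits at the apical border and junctions, and the Scribble complex, to which the membrane scaffolds of the Dlg family belong, marks the basolateral side. F11r, or JAM-A, is an immunoglobulin-type adhesion molecule of tight junctions that binds Pard3 and is also present on leukocytes. Melanocytes and myeloid cells form no epithelium, but many of these proteins also serve in cell contact, migration and asymmetric division.

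The promoter windows of Crb2, Dlg3 and F11r are shown because these are the genes selected on their signal. Each is 300 bases of RefSeq sequence (GRCm38.p6), 250 before and 50 after an annotated start of the gene, and Dlg3 has 2 such starts. Capitals mark CACCTG or CAGGTG, the letters of the E-box bound by Snail and Zeb repressors, and GGGCGG or CCGCCC, the letters of the GC box; both strands were searched and no matches overlapped.
Crb2, chr2:37775999-37776298, + strand: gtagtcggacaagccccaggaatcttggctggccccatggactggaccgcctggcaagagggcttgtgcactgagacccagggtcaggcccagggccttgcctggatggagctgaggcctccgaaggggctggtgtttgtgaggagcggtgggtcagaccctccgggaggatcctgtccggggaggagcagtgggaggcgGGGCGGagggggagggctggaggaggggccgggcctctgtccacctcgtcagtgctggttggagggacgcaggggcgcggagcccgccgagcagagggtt
Dlg3, first start, chrX:100774245-100774544, + strand: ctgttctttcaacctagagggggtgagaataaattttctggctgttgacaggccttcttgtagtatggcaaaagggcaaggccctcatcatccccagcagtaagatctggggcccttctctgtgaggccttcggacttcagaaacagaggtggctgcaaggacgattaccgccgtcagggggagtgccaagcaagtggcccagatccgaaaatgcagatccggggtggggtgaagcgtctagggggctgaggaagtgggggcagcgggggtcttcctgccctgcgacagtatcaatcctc
Dlg3, second start, chrX:100777021-100777320, + strand: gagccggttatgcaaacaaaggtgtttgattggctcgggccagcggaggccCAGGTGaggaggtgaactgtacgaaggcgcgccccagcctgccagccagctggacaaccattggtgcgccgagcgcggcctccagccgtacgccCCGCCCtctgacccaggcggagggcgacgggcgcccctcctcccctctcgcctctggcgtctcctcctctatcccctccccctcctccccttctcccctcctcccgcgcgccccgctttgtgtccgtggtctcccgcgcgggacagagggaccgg
F11r, chr1:171437311-171437610, + strand: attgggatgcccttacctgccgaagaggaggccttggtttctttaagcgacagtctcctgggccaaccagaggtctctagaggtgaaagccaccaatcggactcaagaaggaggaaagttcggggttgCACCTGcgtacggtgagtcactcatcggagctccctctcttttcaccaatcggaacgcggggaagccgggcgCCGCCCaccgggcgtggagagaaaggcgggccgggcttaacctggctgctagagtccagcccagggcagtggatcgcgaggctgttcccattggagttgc
Among 32851 promoters of this length, 20.2% held CACCTG or CAGGTG and 35.7% held GGGCGG or CCGCCC. The Snail and Zeb letters occurred once in the F11r window and once at the second Dlg3 start, and in neither the Crb2 window nor the first Dlg3 start. The GC box letters occurred once in each window except the first Dlg3 start. CACGTG, the E-box letters bound by Mitf and Myc, stood in none of the 4 windows, against 7.15% of all promoters. The array does not say which Dlg3 start was in use.

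Signal is given as normalized log2 signal, the log2 intensity less that array's 75th percentile, so 0 is the percentile itself and a difference of 1 is 2-fold. A probe counts as read on an array where the scanner software marked it well above background. The share of probes read was 43.6% to 53.8% on 23 arrays and 89.9% on D replicate 3, whose 75th percentile of intensity was also the highest (573.8 against 270.9 to 483.9). All 12 melanocyte markers were read on every melanoma array, and 10 of 12 blood cell markers on every myeloid array. Cd33 and Cd34 were read on no myeloid array. Epithelial markers averaged -5.80 to -5.09 on the other 16 melanoma arrays with 1 to 4 of 10 read, but -2.44 with 9 of 10 read on D replicate 3. On that array 10 of 12 blood markers were also read (mean -2.21, against -4.56 to -3.91 on the other melanoma arrays), as were 5 of 8 endothelial markers (mean -3.55, against -6.25 to -5.37). The part of these transcripts in the D values was not tested, and D values are given with and without this array where it matters.

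**Figure D1:**
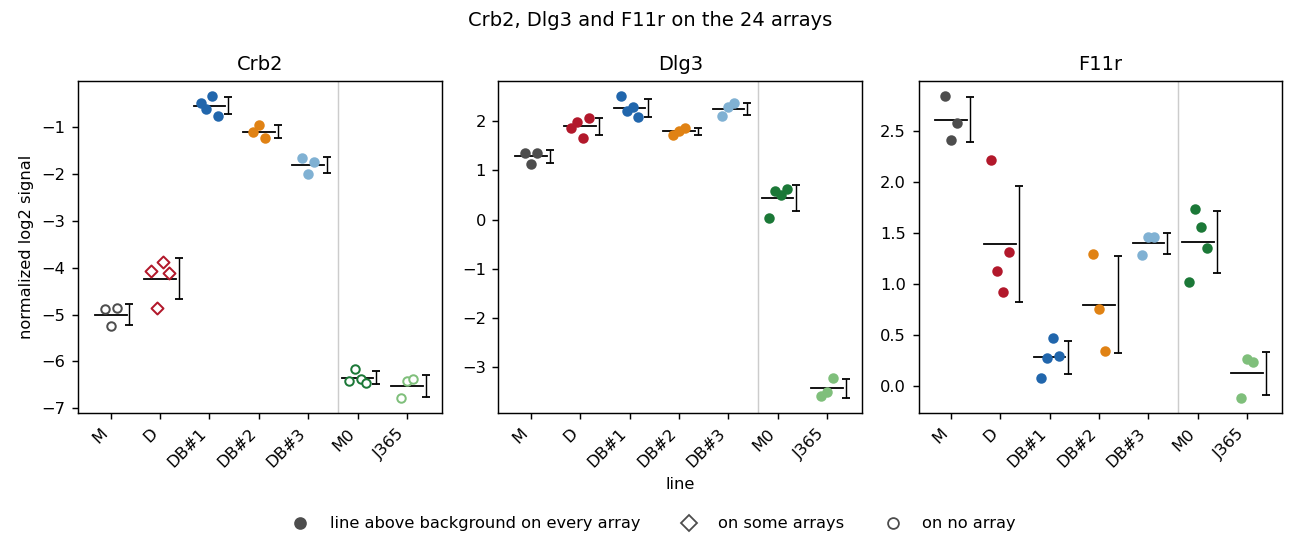
Normalized log2 signal (y axis) of Crb2, Dlg3 and F11r on each of the 24 arrays, by line (x axis). Points are arrays (filled, diamond or open where the probe was above background on every, some or no array of the line), with means and bars of ± 1 SD, and the y axes differ between panels. Crb2 is high in the DB lines, Dlg3 is lowest in J365, and F11r is highest in M.

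Crb2 encodes a large transmembrane protein whose short cytoplasmic tail recruits the Crumbs complex. It was measured by 1 probe, so its values have no second measurement. In M its signal was -4.88, -5.25 and -4.87, and the probe was not well above background on any of the 3 arrays. In D it was -4.07, -4.87, -3.88 and -4.12, and only replicates 3 and 4 were above background. The lowest D array lay within the M range, so these lines overlapped by that array.

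In the DB lines Crb2 was read on every array. The signals were -0.47, -0.60, -0.33 and -0.76 in DB#1, -1.10, -0.95 and -1.23 in DB#2, and -1.66, -1.99 and -1.75 in DB#3. These 3 lines did not overlap with each other or with M and D, and their order was DB#1, DB#2, DB#3. The 7 myeloid arrays lay between -6.79 and -6.15 and none was above background.

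Crb2 was 4.46 ± 0.19 (SE) log2 units higher in DB#1 than in M, 3.91 ± 0.21 higher in DB#2 and 3.20 ± 0.21 higher in DB#3. Because Crb2 was not above background in M, these are bounds in terms of fold. Against the weakest signal that was well above background on each M array, or the probe's own signal where that was higher, Crb2 was at least 13.5-fold higher in DB#1, at least 9.18-fold in DB#2 and at least 5.63-fold in DB#3. Against D the differences were 3.69 ± 0.18, 3.14 ± 0.19 and 2.43 ± 0.19 log2 units for DB#1, DB#2 and DB#3. Without D replicate 3 they were 3.81, 3.26 and 2.55. Since Crb2 was above background on 2 of the 4 D arrays, these differences rest in part on background signal. The arrays lay on 3 slides that each held every line, and within slides the DB#1 difference from M was 4.21 to 4.78. With normexp background correction in place of the scanner software's, the differences from M shrank to 2.13, 1.64 and 1.27 log2 units. Those from D shrank to 2.03, 1.55 and 1.17. This setting adds an offset of 50 to every intensity, which by construction shrinks differences from dim signals. In RNA from whole cultures, a line in which fewer cells carry a transcript cannot be told apart from one in which each cell carries less of it.

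Dlg3, also called SAP102, is a scaffold of the membrane-associated guanylate kinase family that holds receptors and polarity proteins at the membrane. It was read on all 24 arrays, by 1 probe, so its values have no second measurement. In M its signal was 1.37, 1.13 and 1.36. In D it was 1.86, 1.99, 1.66 and 2.08, all above M. The DB#1 arrays gave 2.51, 2.21, 2.30 and 2.09, the DB#2 arrays 1.72, 1.81 and 1.87, and the DB#3 arrays 2.11, 2.29 and 2.37. Every array of these 4 lines was above every M array, whereas D and DB#2 overlapped, and so did DB#1 and DB#3.

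The differences of Dlg3 from M were 0.61 ± 0.15 (SE) log2 units in D, 0.99 ± 0.15 in DB#1, 0.52 ± 0.16 in DB#2 and 0.97 ± 0.16 in DB#3. Without D replicate 3 the D difference was 0.69. Within single slides the D difference was 0.53 to 0.71 and the DB#2 difference 0.45 to 0.59. Without any scaling between arrays the DB#2 difference was 0.75.

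Dlg3 took the opposite course in the myeloid lines. M0 gave 0.04, 0.59, 0.50 and 0.62, and J365 gave -3.59, -3.51 and -3.22. All 3 J365 arrays lay far below all M0 arrays and below every melanoma array. The difference of J365 from M0 was -3.88 ± 0.15 (SE) log2 units, and -4.01 to -3.81 within slides. With normexp correction, whose offset shrinks differences from dim signals, it was -2.37. M was above M0 without overlap, by 0.85 ± 0.15.

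F11r was also measured by 1 probe and read on all 24 arrays. In M its signal was 2.84, 2.40 and 2.58, above every array of every other line. In D it was 2.21, 1.12, 0.92 and 1.31, where replicate 1 stood above the other 3 arrays and near M. The DB#1 arrays gave 0.08, 0.27, 0.47 and 0.29, the DB#2 arrays 1.29, 0.75 and 0.35, and the DB#3 arrays 1.28, 1.46 and 1.46. DB#1 was below DB#3 and D without overlap, while DB#2 overlapped with D, DB#1 and DB#3.

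The differences of F11r from M were -1.22 ± 0.25 (SE) log2 units in D, -2.33 ± 0.26 in DB#1, -1.81 ± 0.27 in DB#2 and -1.21 ± 0.27 in DB#3. Leaving out D replicate 1 gave a D difference of -1.49, and leaving out D replicate 3 gave -1.06. DB#1 differed from D by -1.11 ± 0.24, and by -1.19 to -0.84 within slides. Of the other 2 lines, DB#2 differed from D by -0.59 ± 0.26 and DB#3 by 0.01 ± 0.25, and both differences changed sign between slides (-0.96 to 0.37 and -0.21 to 0.54).

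In the myeloid lines F11r was 1.02, 1.73, 1.55 and 1.35 in M0, and -0.12, 0.26 and 0.23 in J365. These lines did not overlap, and J365 differed from M0 by -1.29 ± 0.26 (SE) log2 units. The differences of F11r had the same sign in D against M and in J365 against M0, and those of Dlg3 had opposite signs. All comparisons against M share its 3 arrays, so they are not independent of each other.

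**Figure D2:**
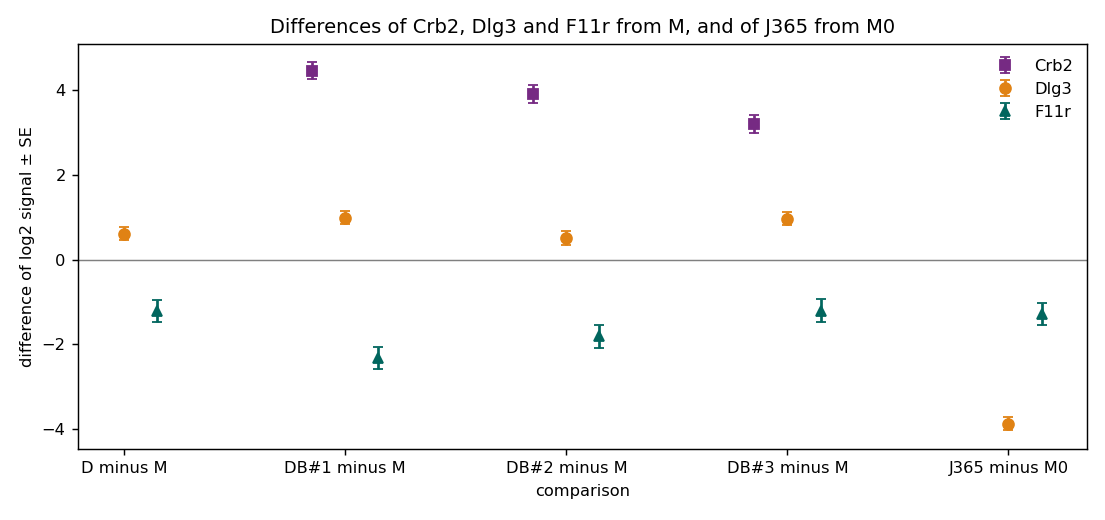
Difference of normalized log2 signal (y axis) of Crb2, Dlg3 and F11r in each comparison (x axis), with bars of ± 1 SE from the fit over all genes. Crb2 is shown only where it was above background on every array of at least 1 line compared. Crb2 lies between 3.20 and 4.46 in the DB lines, Dlg3 is above 0 in the melanoma comparisons and at -3.88 in J365 against M0, and F11r is below 0 in all 5.

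The nearest genes on the chromosome were read from the same fit. Of the 10 tested genes flanking Crb2 on chromosome 2, 5 on each side, the differences of DB#1 from M lay between -0.67 and 0.19, those of DB#2 between -0.53 and 0.07 and those of DB#3 between -0.50 and 0.15. Strbp, in DB#1 (-0.67), was the 1 neighbour called in these 3 comparisons. All 10 lay below its own differences of 3.20 to 4.46. The 10 genes around Dlg3 on chromosome X differed by -0.26 to 0.39 between J365 and M0. Around F11r on chromosome 1 the range was -0.34 to 0.44 for DB#1 against M and -1.27 to 0.31 for J365 against M0, and none of these passed the test. Itln1 (-1.27) and Klhdc9 (-1.01) were near the J365 difference of F11r itself.

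The genes whose signal followed these 3 most closely were sought by Pearson correlation across genes read on every array of at least 1 line, as a description of arrays that share lines and slides. Over the 24 arrays, among 14311 genes, Crb2 was most like C1ql3 (r = 0.945), a secreted synaptic protein, Camk2b (r = 0.939), a calcium-dependent kinase, and Fabp3 (r = 0.936), a fatty acid binding protein. Fabp3 averaged -4.47 ± 1.00 (SD, n = 3) in M, -1.46 ± 0.31 (n = 4) in D and 0.64 ± 0.08 (n = 4) in DB#1, so unlike Crb2 it was already read on every D array. Over the 17 melanoma arrays, among 13230 genes, the closest were Kcnn4 (r = 0.956), a calcium-activated potassium channel, Batf (r = 0.955), a transcription factor of lymphoid cells, and Cd72 (r = 0.947), a B cell surface protein. Unlike Crb2, all 3 were read on every myeloid array, with means of 1.94 to 3.51.

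For Dlg3 the closest over 24 arrays were Ppp1r21 (r = 0.981), Cdc42ep3 (r = 0.978), an effector of Cdc42, and 2310030G06Rik (r = 0.976). None of these 3 was above background on any J365 array, while each was read on all 4 M0 arrays. Over the melanoma arrays the closest to Dlg3 were Podxl2 (r = 0.960), D17H6S56E-5 (r = 0.949) and Tyro3 (r = 0.944), a receptor tyrosine kinase. Tyro3 averaged 2.95 ± 0.19 (SD, n = 3) in M and 3.99 ± 0.07 (n = 4) in DB#1.

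No gene followed F11r as closely over 24 arrays, where the highest values were Nmnat2 (r = 0.804), Cbr2 (r = 0.782) and Trim9 (r = 0.75). Within the melanoma arrays they were Plvap (r = 0.946), an endothelial diaphragm protein, Pgm2l1 (r = 0.911) and Havcr2 (r = 0.903), an immune checkpoint receptor also called TIM-3. Havcr2 averaged 0.03 ± 0.08 (SD, n = 3) in M and -2.31 ± 0.22 (n = 4) in DB#1, and M0 (-0.89 ± 0.38, n = 4) was below J365 (0.16 ± 0.45, n = 3), the reverse of F11r.

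**Figure D3:**
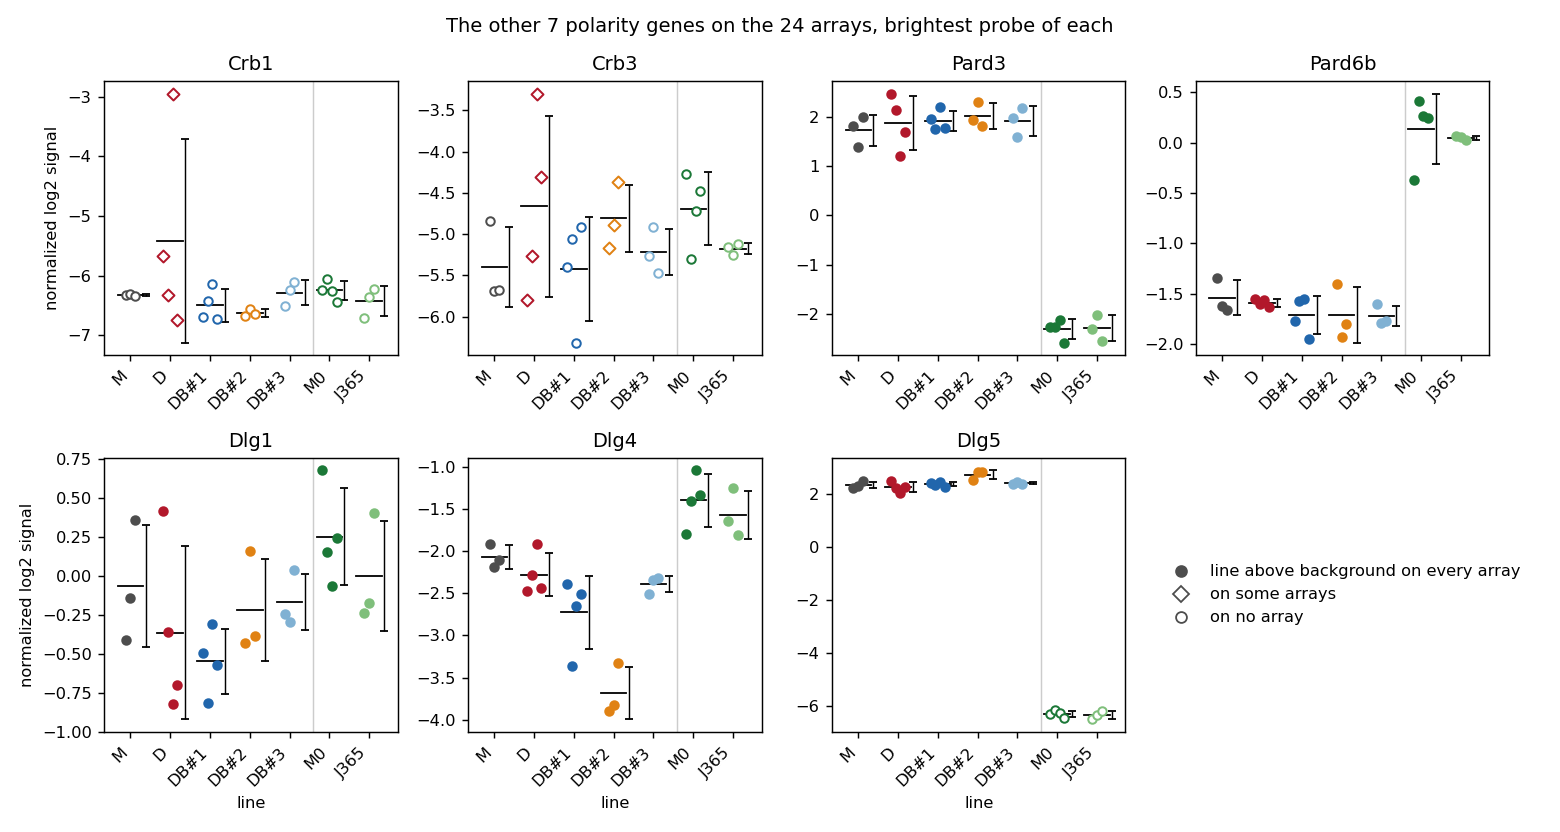
Normalized log2 signal (y axis) of the brightest probe of Crb1, Crb3, Pard3, Pard6b, Dlg1, Dlg4 and Dlg5 on each of the 24 arrays, by line (x axis). Points are arrays, horizontal bars are means and vertical bars are ± 1 SD. Pard3 and Dlg5 separate melanoma from myeloid lines, Dlg4 is lowest in DB#2, and the high Crb1 value in D belongs to replicate 3.

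The other Crumbs genes could not be compared between lines. Crb1, known from retinal disease, was above background on D replicate 3 alone, with its brightest probe at -2.95 there and between -6.74 and -5.66 on the other D arrays. Crb3, the widespread epithelial form, was above background by its brightest probe on 3 of 24 arrays, D replicates 3 and 4 and DB#2 replicate 3, at -3.29, -4.31 and -4.36. Neither was read on every array of any line, so neither was tested. Of the 3 Crumbs genes, then, Crb2 was the one read throughout a line, and that was so in the DB lines only.

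The members were chosen with earlier results of these data known, so the p-values below describe the fit and are no independent evidence. Among the remaining 5 members, Pard3, Pard6b, Dlg1, Dlg4 and Dlg5, limma called none of 5 in D against M, where 2.97% of the 20145 names tested were called at an adjusted p under 0.05. None was called in DB#1 against M (3.69% of all genes), in DB#3 against M (2.76%), in DB#1 against D (0.475%) or in DB#3 against D (0.369%). Of the 4 tested, none was called in J365 against M0 (1.47%). At an unadjusted p under 0.05 the counts in these comparisons were 0, 1, 0, 1, 0 and 0. One of 5 was called in DB#2 against M (3.44%), 2 of 5 in DB#2 against D (6.34%) and 4 of 5 in M against M0 (58.5%). Arrays of one slide deviated together (mean r 0.55 over 69 pairs), and with slide as a block Dlg5 was called in DB#2 against M as well (0.38, adjusted p = 0.0469), as it was without scaling (0.61, 0.0226). The difference between D minus M and J365 minus M0 was called for none of 5 (2.08% of all genes, 0 of 5 at an unadjusted p under 0.05).

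Dlg4, or PSD-95, the main scaffold of excitatory synapses, fell in DB#2. Its brightest probe was read on all 24 arrays and gave -3.90, -3.83 and -3.32 in DB#2, against -1.92, -2.19 and -2.11 in M and -2.48, -2.29, -1.92 and -2.44 in D. DB#2 overlapped with neither, but DB#1 replicate 2 (-3.36) lay within the DB#2 range. The DB#2 difference was -1.61 ± 0.24 (SE) from M (limma, adjusted p = 0.000179) and -1.40 ± 0.22 from D (adjusted p = 0.000306). DB#1 and DB#3 also lay below M without overlap, with differences of -0.65 and -0.32 that were not called. The other 2 probes of Dlg4 were read on 1 and 12 arrays and allowed no second measurement. With quantile normalization the difference of DB#2 from D was -0.96 (adjusted p = 0.0578), the only setting of those tried that ended this call.

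Dlg5, a larger Dlg relative tied to cell adhesion, separated the models. Its brightest probe ranged from 2.03 to 2.84 over the 17 melanoma arrays. Over the 7 myeloid arrays it ranged from -6.51 to -6.18, where it was never above background. M was at least 87.4-fold brighter than M0 (measured means 2.36 and -6.30; limma, adjusted p = 8.24e-22). Within the melanoma lines Dlg5 was 2.54, 2.84 and 2.84 in DB#2 and 2.49, 2.24, 2.03 and 2.29 in D, a difference of 0.48 ± 0.13 (SE; limma, adjusted p = 0.025). That call did not hold without D replicate 2 or 3 or DB#2 replicate 2 or 3 (0.40 to 0.47, adjusted p 0.0531 to 0.136). It also ended with normexp (0.07355), without the filter on dim probes (0.112), with only the lines compared (0.44) and with the replicate block (0.06665). The second probe was read on 9 arrays and stood at -0.70 on D replicate 3, against -4.53 to -3.83 on the other D arrays. The mean of the detected probes gave -0.21 (adjusted p = 0.83).

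Pard3, the scaffold that organises the Par complex, had 6 probes. Its brightest was read on all 24 arrays, at 1.21 to 2.47 in the melanoma lines and -2.58 to -2.02 in the myeloid lines. M exceeded M0 by 4.02 ± 0.25 (SE; limma, adjusted p = 9.64e-12) by this probe. The other 4 probes read on every M array were above background on no M0 array, so they give bounds, with M at least 1.59-fold to at least 36.9-fold brighter. No difference of a melanoma line from M or D was called. Within D the probe ranged from 1.21 on replicate 3 to 2.47 on replicate 1.

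Pard6b, an adaptor that links Cdc42 to the atypical protein kinase C, ran the other way. It was read on all 24 arrays, at -1.95 to -1.34 in the melanoma lines and -0.37 to 0.41 in the myeloid lines, and M differed from M0 by -1.68 ± 0.17 (SE; limma, adjusted p = 2.66e-08). All melanoma lines overlapped. Dlg1, or SAP97, the scaffold closest to the founding fly gene, was read on all arrays by both of its probes and was called in none of the comparisons. Its brightest probe lay between -0.82 and 0.68 over the 24 arrays, and its 2 probes gave differences of -0.49 and -0.48 for DB#1 against M. Dlg4 differed between M and M0 by -0.68 ± 0.23 (SE; limma, adjusted p = 0.0139), a call that ended without M replicate 2 or M0 replicate 2 (-0.62 and -0.56, adjusted p 0.0524 and 0.0506), with quantile normalization (-0.61, 0.102) and without scaling (-0.54, 0.153).

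**Figure D4:**
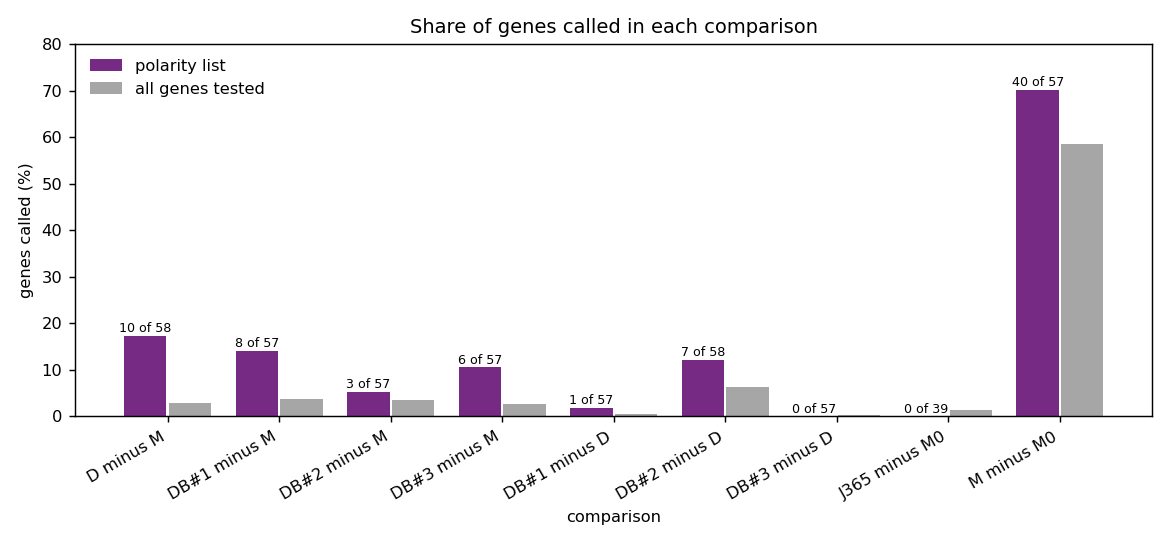
Share of genes called by limma at an adjusted p under 0.05 (y axis, percent) in each comparison (x axis), for the wider polarity list and for all genes tested. The labels give the number of list genes called of those tested. The list was chosen with earlier results of these data known. The list share is above the share of all genes in D against M (10 of 58) and at 0 in J365 against M0 (0 of 39).

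A wider list of 73 polarity and junction genes was read from the same fit. It was chosen with earlier results of these data known, so its share of calls beside that of all genes is a description. In D against M, 10 of the 58 tested were called, 6 higher and 4 lower, which is 17.2% against 2.97% of all genes (1.38% higher, 1.59% lower). The median difference of the list was -0.01, as over all genes (-0.01). Without D replicate 3, 9 were called, and without M replicate 3, 6. The called genes were spread over the groups: 2 of 5 Par complex genes (both higher), 4 of 19 junction genes (2 higher, 2 lower), 3 of 15 planar polarity genes (2 higher, 1 lower) and 1 of 7 Crumbs partners (lower). None of 5 Scribble genes and none of 7 Lkb1 and Par-1 kinase genes was called, nor did any of these have an unadjusted p under 0.05.

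Cgnl1, or paracingulin, a protein of tight and adherens junctions, rose the most. Only 1 of its 4 probes was read on every array of a line compared, so its rise has no second measurement. It was -6.40, -6.45 and -6.19 in M, not above background on any array, and -2.65, -2.32, -0.89 and -2.34 in D. The DB#1 arrays gave -0.86, -1.30, -1.33 and -1.57, the DB#2 arrays -3.52, -3.24 and -3.52, and the DB#3 arrays -0.83, -1.29 and -1.05. No array of these lines overlapped with M. Cgnl1 was at least 4.73-fold higher in D than in M (limma, adjusted p = 5.31e-09), at least 8.14-fold in DB#1 (2.13e-10), at least 1.82-fold in DB#2 (3.01e-06) and at least 9.42-fold in DB#3 (4.32e-10). The normexp setting, whose offset shrinks differences from dim signals, ended the DB#2 call (0.41, adjusted p = 0.46). D replicate 3 was the brightest D array, and without it the D difference was 3.92 in place of 4.30.

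The 2 Par complex genes that rose act together with Pard3. Prkcz, an atypical protein kinase C, was -2.73 ± 0.12 (SD, n = 3) in M, -1.06 ± 0.21 (n = 4) in D, -0.46 ± 0.16 (n = 4) in DB#1, -2.96 ± 0.31 (n = 3) in DB#2 and -0.75 ± 0.17 (n = 3) in DB#3. It rose by 1.67 ± 0.18 (SE) in D (limma, adjusted p = 3.53e-06), 2.27 ± 0.18 in DB#1 (2.04e-08) and 1.98 ± 0.19 in DB#3 (5.51e-07), and its 2 detected probes gave 1.67 and 2.08 in D. DB#2 overlapped with M and differed from D by -1.90 ± 0.18 (adjusted p = 3.38e-07).

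Pard6g, the counterpart of Pard6b, was at 0.69 ± 0.18 (SD, n = 3) in M, 1.98 ± 0.30 (n = 4) in D, 2.32 ± 0.30 (n = 4) in DB#1, 1.19 ± 0.16 (n = 3) in DB#2 and 2.64 ± 0.15 (n = 3) in DB#3. It rose by 1.29 ± 0.31 (SE) in D (limma, adjusted p = 0.0246), 1.64 ± 0.31 in DB#1 (0.00262) and 1.95 ± 0.34 in DB#3 (0.00105). The D call was lost without M replicate 1, 2 or 3 or D replicate 2 or 4 (1.18 to 1.35, adjusted p 0.0614 to 0.134).

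Among the junction genes, Jam3 is an adhesion molecule related to F11r. Jam3 and Epb41l5 are described because they stood out once their values were seen. Jam3 was 1.11, 0.99 and 1.23 in M, 1.98, 2.08, 1.61 and 1.91 in D, and 0.98, 1.04 and 0.79 in DB#2. It rose by 0.78 ± 0.19 (SE) in D (limma, adjusted p = 0.0237), 0.97 ± 0.19 in DB#1 (0.00318) and 0.97 ± 0.20 in DB#3 (0.00688), and differed by -0.96 ± 0.19 between DB#2 and D (0.0028). The D call was lost without M replicate 1, 2 or 3 or D replicate 2 or 4 (0.72 to 0.84, adjusted p 0.0546 to 0.13). Epb41l5, a band 4.1 protein that binds Crumbs tails, fell against M in all 4 lines, by 0.79 ± 0.14 in D (adjusted p = 0.00149), 0.92 ± 0.14 in DB#1 (0.000156), 0.86 ± 0.15 in DB#2 (0.00089) and 0.73 ± 0.15 in DB#3 (0.00514). Each of these calls was lost under at least 1 other setting. Quantile normalization ended those in DB#1, DB#2 and DB#3 (adjusted p 0.0574, 0.106 and 0.275). The D call ended without scaling (0.0516), with the compared lines alone (0.289) and with the mean of detected probes (0.0675). The DB#3 call also ended with normexp (0.0952), the compared lines alone (0.0739) and the replicate block (0.108).

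**Figure D5:**
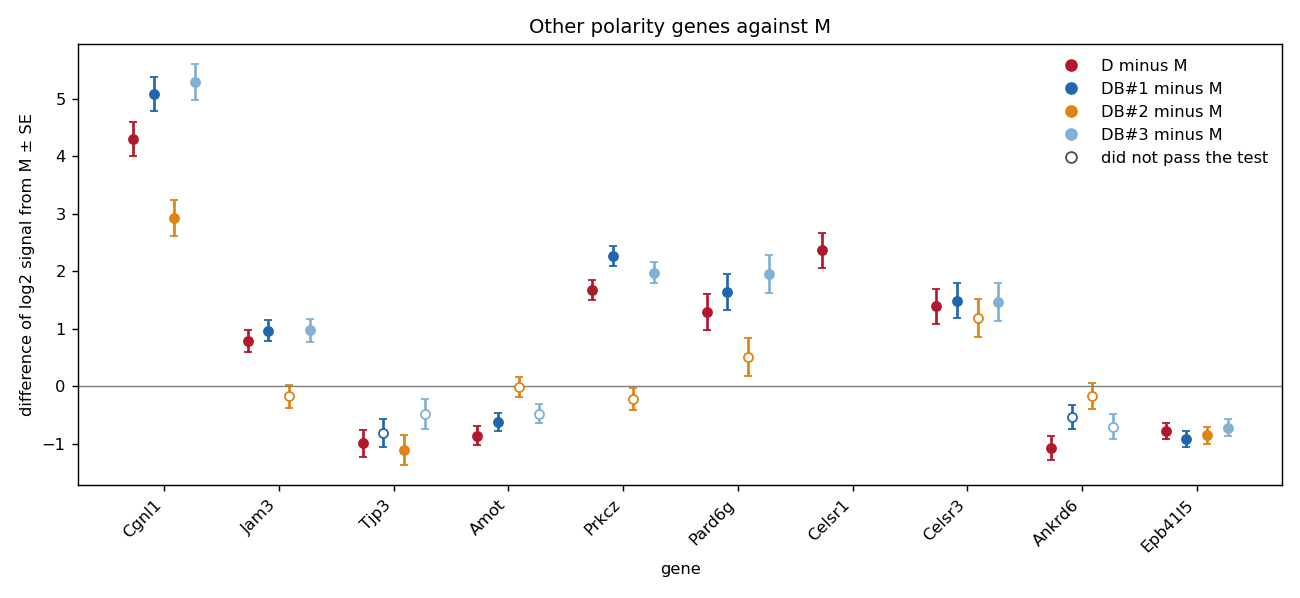
Difference of normalized log2 signal from M (y axis) of 10 wider-list genes (x axis) in D and the DB lines, with bars of ± 1 SE. Filled points passed the test (limma, adjusted p under 0.05), open points did not, and Celsr1 was tested in D only. Cgnl1 is above 0 in all 4 lines and Epb41l5 below 0 in all 4, while Prkcz, Pard6g and Jam3 did not pass the test in DB#2.

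Tjp3, the tight junction scaffold ZO-3, fell by 1.00 ± 0.24 (SE) in D (limma, adjusted p = 0.0225) and 1.11 ± 0.26 in DB#2 (0.0141). Those calls were lost without M replicate 1 or 3 or D replicate 3 or 4 in D (-1.01 to -0.89, adjusted p 0.0553 to 0.155), and without M replicate 3 or DB#2 replicate 1 or 3 in DB#2 (adjusted p 0.0554 to 0.0895). Amot, an angiomotin that binds Patj and the Hippo effector Yap, fell by 0.86 ± 0.16 in D (0.00296) and 0.62 ± 0.16 in DB#1 (0.0316). Only 1 of the 3 Amot probes was read on every array of a line compared. The DB#1 call was lost without any single M array or DB#1 replicate 1, 2 or 4 (-0.67 to -0.54, adjusted p 0.0613 to 0.145). In DB#1, Tjp3 (-0.82) missed the threshold (0.0666), but it was called without M0 replicate 4 or 1 (0.0327 and 0.0409) and under 5 other settings, among them slide as a block (0.00605).

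Of the planar polarity genes, the atypical cadherin Celsr3 rose by 1.39 ± 0.31 (SE) in D (limma, adjusted p = 0.0132), 1.49 ± 0.31 in DB#1 (0.00537) and 1.46 ± 0.33 in DB#3 (0.014). The D call was lost without M replicate 2 or 3 (1.24 and 1.33, adjusted p 0.0942 and 0.0808), and the DB#3 call without M replicate 2 or 3 or DB#3 replicate 3 or 5 (1.31 to 1.43, 0.0639 to 0.0931). In DB#2 Celsr3 missed the threshold (1.19 ± 0.33, 0.0529) but was called without M replicate 1 or D replicate 1, 3 or 4 (1.19 to 1.39, 0.000851 to 0.0493). With quantile normalization the differences in D, DB#1 and DB#3 were not called (adjusted p 0.464, 0.143 and 0.246). Its relative Celsr1 was read on every array of D and on none of M or the DB lines, and was at least 1.79-fold higher in D than in M (adjusted p = 4.79e-05). Normexp correction, whose offset shrinks differences from dim signals, gave 0.39 (adjusted p = 0.33), and quantile normalization gave 1.53 (0.0905). Ankrd6, or Diversin, fell by 1.08 ± 0.21 in D (0.00376), and in DB#3 (-0.70, 0.127) it was called without M0 replicate 4 (0.0274) or with the replicate block (0.0374). Only 1 of the 3 Celsr3 probes and 1 of the 2 Ankrd6 probes was read on every array of a line compared, and Celsr1 had 1 probe.

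The DB lines were compared with M in the same way. There, 8 of 57 wider-list genes were called in DB#1 (6 higher, 2 lower; 14% against 3.69% of all genes, of which 2.05% higher and 1.65% lower), 3 of 57 in DB#2 (1 higher, 2 lower; 5.26% against 3.44%, of which 2.15% higher and 1.28% lower) and 6 of 57 in DB#3 (5 higher, 1 lower; 10.5% against 2.76%, of which 1.61% higher and 1.15% lower). With slide as a block the DB#2 count was 8. It was 5 without D replicate 1 or D replicate 4.

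Between D and the DB lines few list genes differed, apart from DB#2. In DB#1 against D, 1 of 57 was called (0.386% of all genes higher, 0.0891% lower), Celsr1, which was at least 1.86-fold higher in D (limma, adjusted p = 0.00766). That call ended with quantile normalization (0.992), normexp (0.997) and only the lines compared (0.0782). Without D replicate 3 a second gene, Cgnl1, was called as well (1.17, adjusted p = 0.00151). In DB#3 against D, limma called 0 of 57, with 6 at an unadjusted p under 0.05 (0.24% of all genes higher, 0.13% lower). The gene nearest to a call was Celsr1 (-1.39 ± 0.30, SE, adjusted p = 0.0501), and without D replicate 3 Cgnl1 was called (1.38, 0.000747). Leaving out M replicate 1 or 3, D replicate 4, DB#2 replicate 2 or M0 replicate 4 or 1 brought Celsr1 under the threshold (-1.62 to -1.39, 0.0169 to 0.0479).

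In DB#2 against D, 7 of 58 list genes were called (3 higher, 4 lower; 12.1% against 6.34% of all genes, of which 3.9% higher and 2.44% lower). Besides Prkcz and Jam3, Cgnl1 differed by -1.38 ± 0.29 (SE; limma, adjusted p = 0.00502) and Celsr1 was at least 2.02-fold higher in D (0.00157). The Celsr1 call ended with quantile normalization (0.327), normexp (0.151) and only the lines compared (0.0663). The Cgnl1 call also ended with only the lines compared (0.219). Amot was higher in DB#2 by 0.85 ± 0.16 (0.00197) and Ankrd6 by 0.91 ± 0.21 (0.0093), the latter not called without DB#2 replicate 2 or 3 (0.83 and 0.87, adjusted p 0.062 and 0.0528). For Prkcz, Jam3, Amot and Ankrd6, the DB#2 mean was nearer to M than those of the other dormancy-derived lines were. That also held for Cgnl1, Pard6g, Celsr3 and Dlg3. It did not hold for Crb2 (3.91 above M in DB#2), F11r, Dlg4, Dlg5, Epb41l5 or Tjp3.

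None of the 39 wider-list genes tested in J365 against M0 was called by limma, with 6 at an unadjusted p under 0.05 (0.721% of all genes higher, 0.745% lower). Without J365 replicate 4, 1 was called. Jam3, Prkcz, Cgnl1, Amot and Ankrd6 were above background throughout neither myeloid line and were not tested there.

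The contrast of D minus M with J365 minus M0 was called for 6 of 58 list genes (4 higher, 2 lower; 10.3% against 2.08% of all genes, of which 1.22% higher and 0.852% lower). They were Cgnl1 (4.53 ± 0.42, SE; limma, adjusted p = 6.72e-07), Prkcz (1.82 ± 0.25, 0.000134), Jam3 (1.31 ± 0.27, 0.00873), Epb41l5 (-0.88 ± 0.20, 0.0161), Ankrd6 (-1.22 ± 0.30, 0.0305) and Pard6g (1.74 ± 0.45, 0.0474). For Cgnl1, Prkcz, Jam3 and Ankrd6 the myeloid side of the contrast came from arrays on which the gene was not above background. The Pard6g call was lost in 21 of the 24 fits that left out 1 array (1.47 to 1.91, adjusted p 0.051 to 0.157). The Ankrd6 call was lost without M replicate 1 or 3, D replicate 4, M0 replicate 1 or 2 or any J365 array (-1.25 to -1.06, 0.0565 to 0.0941), and the Epb41l5 call without M replicate 1 or 3 (-0.85 and -0.78, 0.0562 and 0.0709). Calls were gained for Celsr1 without M replicate 3 or D replicate 4 (1.74 and 1.65), for Celsr3 without D replicate 1, 3 or 4 (1.11 to 1.74) and for Tjp1 without J365 replicate 4 (-1.22).

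The widest differences of the list lay between the models. In M against M0, 40 of 57 were called, 29 higher and 11 lower in M, which is 70.2% against 58.5% of all genes (27.7% higher, 30.8% lower), and the list median was 0.46 against -0.13 over all genes. By the brightest probe, the planar polarity core gene Vangl1 was at least 91.9-fold higher in M (limma, adjusted p = 1.67e-21). The tight junction scaffold Tjp1 (ZO-1) was at least 57.2-fold higher (3.4e-16) and Amot at least 27.9-fold (6.03e-19). The 2 detected probes gave 5.35 and 8.68 log2 units for Vangl1, and 4.50 and 7.36 for Tjp1, as measured differences, not bounds. In the other direction Celsr1 was at least 19.2-fold higher in M0 (8.73e-13), M minus M0 was -2.37 ± 0.31 (SE) for Celsr3 (1.38e-06) and -2.33 ± 0.24 for Tjp3 (4.64e-08). Of the groups, 12 of 18 tested junction genes and 8 of 15 planar polarity genes were higher in M, with 2 and 3 lower.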

How the data were processed

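Total RNA of 7 mouse lines was measured on 24 one-colour Agilent arrays, each scanned and processed by the authors with Agilent Feature Extraction 10.7.3.1. The deposited intensity per spot was background-subtracted by that software and not scaled between arrays. The authors used GeneSpring for statistics and the sources used here name no test. Control spots and outlier-flagged probes were left out, spots of a probe were averaged, and log2 of the deposited intensity minus the 75th percentile of its array was taken in R 4.3.3. Probes were named through their RefSeq accession (29269 of 29567 NM accessions matched), and a gene was represented by its brightest probe. Unmatched probes kept the array's own name, were tested in the same way and are counted among all genes tested. A gene was tested where that probe was well above background on every array of at least 1 line compared. limma 3.58.1 (lmFit, eBayes) was fitted to all 24 arrays with a term per line and 17 residual degrees of freedom, and p-values were Benjamini-Hochberg adjusted over all genes tested, with a threshold of 0.05. The fit was tested on simulated data with independent noise per array and no slide effect, so that test does not cover deviations shared within a slide. From the wider list, up to 3 called genes per direction and comparison with at least a 2-fold difference were named. The members and lists were chosen with earlier results of these data known. Alternatives were quantile normalization, normexp (offset 50, on the median and background signals, as no mean signal was given), no scaling, a percentile over detected probes, no filter, the mean of detected probes, only the lines compared, slide or replicate blocks, and each array left out. Within-slide values were added after the data were seen. The number of arrays limits the precision.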

Additional observations from a re-analysis of the deposited data

Results flagged for a closer look

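Among 66 groups of 4 arrays, 2 held an array far from the others, where chance flags about 1 group in 20. Tjp3 was 0.1899 on D replicate 2 and -0.5052 to -0.4063 on the other D arrays. Vangl1 was 2.654 on DB#1 replicate 3 and 2.388 to 2.43 on the other DB#1 arrays.

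The contrast of D minus M with J365 minus M0 passed limma's test for 6 wider-list genes. The difference was 4.532 for Cgnl1 (adjusted p = 6.72e-07), 1.824 for Prkcz (0.000134), 1.309 for Jam3 (0.00873), -0.8775 for Epb41l5 (0.0161), -1.225 for Ankrd6 (0.0305) and 1.74 for Pard6g (0.0474). Cgnl1, Prkcz, Jam3 and Ankrd6 were above background on no myeloid array, so for them the contrast holds no measured myeloid effect. The Pard6g call was lost in 21 of the 24 fits that left out 1 array (adjusted p 0.051 to 0.157). The mean of Dlg3 differed by 0.6121 in D against M and by -3.876 in J365 against M0, with no overlap in either pair. That difference between pairs was not tested, because Dlg3 was chosen for its pattern.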

How the results depend on the processing

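Counts of wider-list genes called moved with the setting. In D against M (10), it was 3 when the fit held just the compared lines and 6 at a 2-fold minimum. In DB#1 against M (8), it was 5 with quantile normalization and 4 at a 2-fold minimum, and ranged from 4 to 12 over all settings. In DB#2 against M (3), it was 5 with the percentile over detected probes, 7 without scaling, 8 with slide as a block and 6 with the replicate block. In DB#1 against D (1), it was 0 with quantile normalization, normexp or only the lines compared, and 2 with the slide block or the mean of detected probes. In DB#2 against D (7), it was 1 with only the lines compared and 3 at a 2-fold minimum, and ranged from 1 to 10 over all settings. In DB#3 against D (0), it was 1 with quantile normalization, without scaling or with the mean of detected probes. In J365 against M0 (0), it was 1 with normexp or the replicate block. For M against M0 (40), it ranged from 31 to 44 over all settings. The contrast of the models (6) gave 3 without scaling, without a filter or with the replicate block, and 2 with only the lines compared. The Dlg5 difference of DB#2 from D reversed to -0.21 with the mean of detected probes. The causes were not tested. Fits of only the lines compared used fewer arrays, and the normexp offset of 50 shrinks differences from dim signals by construction.

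Leaving out 1 array gave 6 to 11 calls in D against M, 6 to 9, 2 to 5 and 5 to 7 in DB#1, DB#2 and DB#3 against M, 1 to 2, 5 to 9 and 0 to 1 against D, 0 to 1 in J365 against M0, 37 to 41 in M against M0 and 3 to 7 for the models. Same-numbered arrays did not deviate together (mean r 0.078 over 49 pairs, from -0.80 to 0.91), so the numbers were not taken to pair the samples. The replicate block gave 10, 9, 6 and 5 calls against M, 1, 7 and 0 against D, and 41 in M against M0. Arrays of one slide did deviate together (mean r 0.55 over 69 pairs).

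Without scaling, the median of all genes shifted to 0.17 in D against M, 0.11 and 0.25 in DB#1 and DB#2 against M, and 0.17 in J365 against M0, and to -0.15 in DB#3 against D. The share of calls that were higher then went from 46.5% to 74.4% in D, 62.6% to 89.4% in DB#2 and 49.2% to 69.5% in J365, from 61.5% to 72.7% in DB#2 against D and from 64.9% to 30% in DB#3 against D. Signals not well above background, such as Crb2 and Cgnl1 in M, give only bounds.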
